A study of Rattus norvegicus with 15 samples.

Results

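Genes for 8 enzymes of cholesterol synthesis were followed in rat mesenteric arteries: Hmgcs1, Mvd, Idi1, Fdps, Fdft1, Sqle, Cyp51 and Dhcr7. They were chosen by their log2 signals across the groups, with the change in WKY collateral arteries and its difference from SHR in view. Members were found by gene symbol in the array annotation used here, which named 18 probe sets for 7 of the 8 genes. A probe set is a group of short probes that report 1 transcript. Hmgcs1, which makes the HMG-CoA used by the pathway, and the LDL receptor have no probe set under their symbol there and were not analysed here. The 7 genes are among 4737 named genes on the array. Of their 18 probe sets, 16 passed the filter on low signal, covering all 7 genes, among 6512 that passed in all.

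Arteries of 2 inbred strains were compared, the spontaneously hypertensive rat (SHR), which develops high blood pressure, and the Wistar Kyoto rat (WKY), its normotensive counterpart. Collateral arteries carry added flow after neighbouring mesenteric arteries are occluded, and control arteries are the comparison vessels of the same strain. There were 4 SHR collateral, 4 SHR control, 4 WKY collateral and 3 WKY control arrays, and the sources used here give no genetic change, drug, age, sex or time after occlusion for any group. Whole arteries were used, so fewer cells of a type and less RNA per cell cannot be told apart, and since nothing in the labels ties arrays to separate animals, p-values cover the spread between these arrays alone, which may be technical.

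The pathway builds isoprene units from acetyl-CoA (Mvd, Idi1), joins them into farnesyl diphosphate and squalene (Fdps, Fdft1), oxidises squalene (Sqle) and turns the resulting sterol rings into cholesterol (Cyp51, Dhcr7). Its genes are known as targets of the SREBP transcription factors, which are released from the endoplasmic reticulum when sterol there is low and act together with the factors NF-Y and Sp1. Cells of the artery wall use cholesterol for membranes and can make it or take it up from lipoproteins.

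The promoters of the 4 members whose probe set of highest mean signal did not overlap between WKY collateral and WKY control arteries, and that had an entry in the RefSeq promoter table, are shown because this pathway is known for control at its promoters. Each window runs from 250 bases before to 50 bases after the gene's start, 5′ to 3′ on the gene's strand, in the GRCr8 build. Capitals mark TCACNC, the first letters of a classic SREBP element, and CCAAT, the box bound by NF-Y, on either strand.
Mvd (chr19:67414925-67415224, minus strand): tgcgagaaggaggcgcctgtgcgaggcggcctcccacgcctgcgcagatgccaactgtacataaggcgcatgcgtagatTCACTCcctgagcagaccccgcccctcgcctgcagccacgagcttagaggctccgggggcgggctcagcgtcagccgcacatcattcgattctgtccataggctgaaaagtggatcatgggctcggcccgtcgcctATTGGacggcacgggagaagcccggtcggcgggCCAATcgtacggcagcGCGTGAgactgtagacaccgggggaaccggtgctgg
Idi1 (chr17:66547475-66547774, minus strand): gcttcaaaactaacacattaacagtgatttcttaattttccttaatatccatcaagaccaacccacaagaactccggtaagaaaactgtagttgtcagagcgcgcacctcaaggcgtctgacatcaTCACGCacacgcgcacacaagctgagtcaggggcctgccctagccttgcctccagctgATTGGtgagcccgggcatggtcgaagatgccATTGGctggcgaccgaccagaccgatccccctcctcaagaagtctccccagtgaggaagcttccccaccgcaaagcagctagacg
Fdps (chr2:176804767-176805066, minus strand): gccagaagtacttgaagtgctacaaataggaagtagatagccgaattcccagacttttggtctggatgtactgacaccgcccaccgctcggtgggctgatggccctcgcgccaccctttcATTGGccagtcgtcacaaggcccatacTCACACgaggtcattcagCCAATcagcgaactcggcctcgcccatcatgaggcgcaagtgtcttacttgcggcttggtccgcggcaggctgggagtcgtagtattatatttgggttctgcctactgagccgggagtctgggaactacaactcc
Cyp51 (chr4:30991443-30991742, plus strand): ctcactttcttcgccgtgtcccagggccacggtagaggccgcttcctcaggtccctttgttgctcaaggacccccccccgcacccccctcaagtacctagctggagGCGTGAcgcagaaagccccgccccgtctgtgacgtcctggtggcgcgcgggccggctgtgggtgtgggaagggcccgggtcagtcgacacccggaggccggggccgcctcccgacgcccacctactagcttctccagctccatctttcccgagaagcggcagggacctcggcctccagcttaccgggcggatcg

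Of the 8 genes, 6 had a promoter entry. TCACNC was found in 5 of these 6 promoters (not Dhcr7), and in 41.7% of 33469 promoters of the same length. CCAAT was found in 4 of 6 (not Cyp51 or Dhcr7), and in 37.5% of all. The GC box GGGCGG, the box bound by Sp1, was found in 5 of 6 (not Idi1), and in 33.1% of all. The longer element TCACNCCAC, which contains TCACNC, was in 0 of 6 and in 1.12% of all. Mvd, Idi1 and Fdps each held 2 CCAAT boxes, and in Fdps TCACNC began 103 bases before the start and lay between them. All motifs were searched on both strands, and a match is a description of letters in these windows.

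The array SHR collateral 3 stood apart. Its Spearman correlation with the other 14 arrays was 0.496 to 0.657, against 0.805 to 0.931 among those 14. A signal of 171.2 marked its 20th percentile, against 43.4 to 83.3 on the others. SHR values are therefore given with and without it. The smooth muscle markers Acta2, Myh11, Tagln, Cnn1 and Des lay between the 88.6th and 99.9th percentile on all 15 arrays.

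In SHR, 13 of the 16 tested probe sets had a log2 change above 0 in collateral against control arteries (54.8% of all tested probe sets did), with a median of 0.40 against 0.06 over all. Without SHR collateral 3, 11 of 16 were above 0 (49.6% of all), with a median of 0.41, and without SHR control 2 the median was 0.14. The groups did not overlap, with SHR collateral higher, for 2 of 16 probe sets, 1 each of Idi1 and Fdft1 (0.906% of all, and 2 of 16 against 1.63% of all without SHR collateral 3). By limma, a linear model with a moderated variance, 0 of 16 passed an adjusted p of 0.05, as did 0 of 6512 (0%). At an unadjusted p under 0.05, 0 of 16 were higher (2.07% of all) and 1 was lower, a Dhcr7 probe set (1.69% of all). Without SHR collateral 3 these counts were 1 higher, Sqle (1.49% of all), and 1 lower (2.06% of all). Without SHR collateral 4, 2 of 16 were higher (6.99% of all) and 1 was lower (4.65% of all). These shares are a description too, since the genes were chosen by signals across the groups, those of SHR included.

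In WKY, where the values helped to choose the genes, 14 of 16 probe sets had a log2 change above 0 in collateral against control arteries (50.3% of all), with a median of 0.72 against 0.003 over all. Every WKY collateral array lay above every WKY control array for 6 of 16 probe sets (3.61% of all): those of Mvd, Idi1 and Sqle, 2 of Fdps and 1 of Cyp51. The same 6 had an unadjusted p under 0.05 (1.75% of all were higher at that level and 1.41% lower). By the adjusted p, 0 of 16 and 0 of 6512 (0%) passed. The count of 6 was 3 without WKY control 2 (1.46% of all) and 3 without WKY control 3 (1.41% of all). Nothing is read from these shares, since the choice of genes used this contrast.

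**Figure D1:**
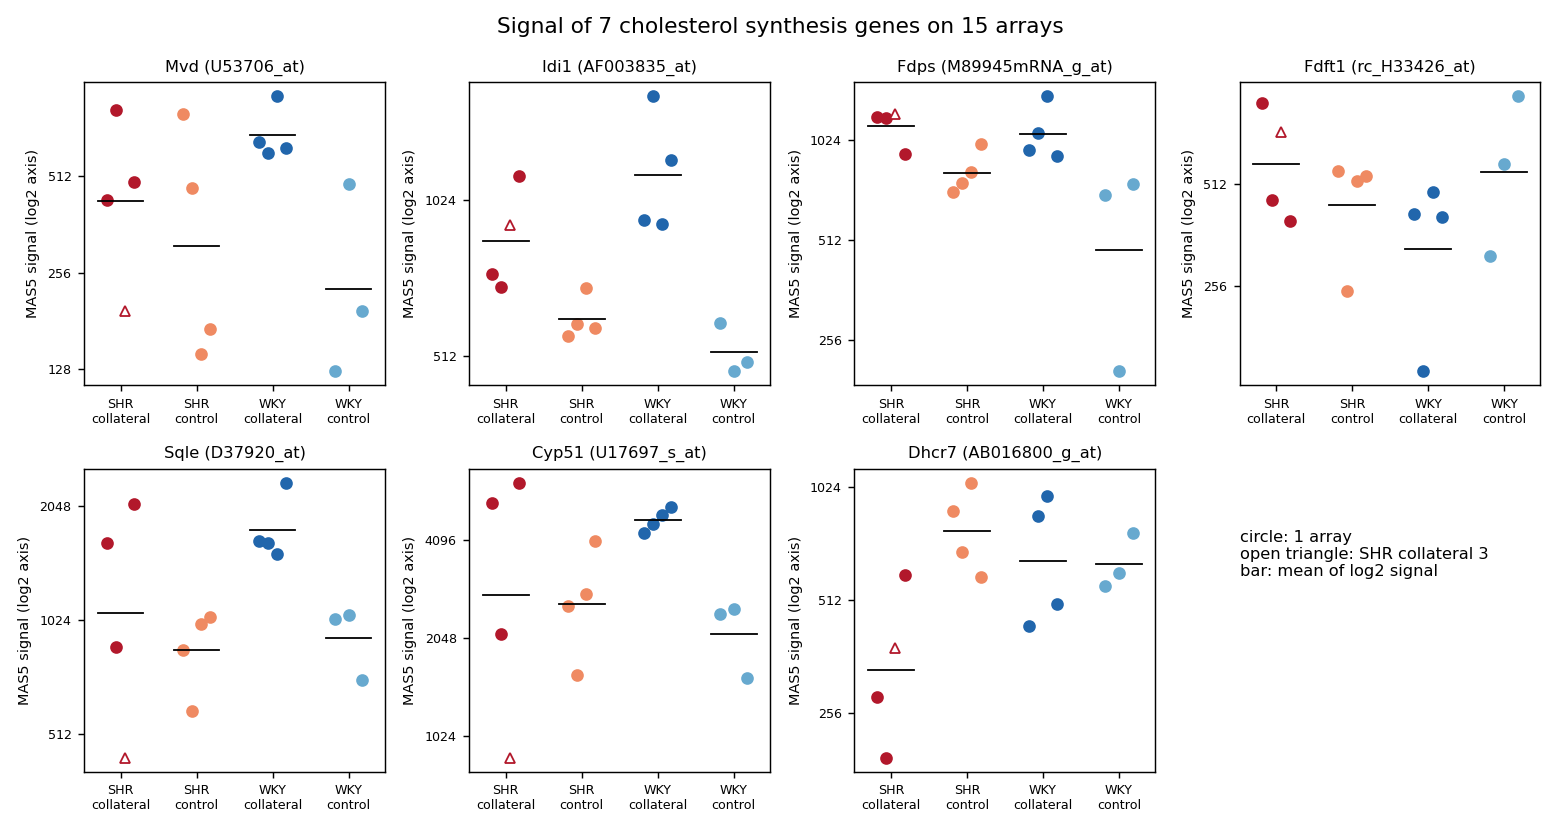
MAS5 signal, on a log2 axis, of 1 probe set for each of the 7 genes (the one of highest mean signal) on the 15 arrays, in the order SHR collateral, SHR control, WKY collateral, WKY control; each circle is an array, the open triangle is SHR collateral 3 and each bar is the mean of log2 signal. WKY collateral arrays lie above WKY control arrays for Mvd, Idi1, Fdps, Sqle and Cyp51 and overlap them for Fdft1 and Dhcr7, while the SHR groups overlap for 6 of the 7 genes.

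Mvd codes for mevalonate diphosphate decarboxylase, which makes isopentenyl diphosphate, the first isoprene unit. Its signal was 432, 820.0, 194 and 489 in SHR collateral arteries 1 to 4, against 801, 470.0, 143 and 171 in SHR control arteries 1 to 4. In WKY it was 655, 606, 908 and 624 in collateral arteries 1 to 4, against 126, 483 and 194 in control arteries 1 to 3. The SHR groups overlapped over nearly their whole range, and the WKY groups did not overlap. The log2 change was 0.47 ± 0.58 in SHR (SE, 4 against 4 arrays; limma adjusted p = 0.949) and 0.85 ± 0.57 without SHR collateral 3. In WKY the log2 change was 1.60 ± 0.62 (SE, 4 against 3 arrays), a 3.02-fold higher signal. On 5 of 15 arrays Mvd lay below the 40th percentile of the array, and its lowest rank was the 23.1st percentile.

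Idi1 codes for the isomerase that converts isopentenyl diphosphate into its reactive isomer. Its probe set AF003835_at had signals of 736, 695, 919 and 1142 in SHR collateral arteries, against 559.7, 591, 694 and 579.9 in SHR control arteries. The signals were 939.7, 1629, 922 and 1223 in WKY collateral arteries, against 594, 478 and 499 in WKY control arteries. In both strains all collateral arrays lay above all control arrays, though in SHR the lowest collateral array (694.8) and the highest control array (694.2) were almost level. The log2 change was 0.50 ± 0.29 in SHR (adjusted p = 0.949 by limma) and 0.47 ± 0.29 without SHR collateral 3. In WKY it was 1.14 ± 0.32, a 2.2-fold higher signal. A second probe set, rc_AI045395_at, was below the 40th percentile on all 15 arrays, with signals of 30.4 to 186, and was not tested.

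Fdps codes for farnesyl diphosphate synthase, whose product feeds sterols, protein prenylation and other isoprenoids. The probe set M89945mRNA_g_at had signals of 1196, 1192, 1228 and 929 in SHR collateral arteries, against 712, 761, 818 and 993 in SHR control arteries. It had 954, 1071, 1385 and 915 in WKY collateral arteries, against 697, 206 and 753 in WKY control arteries. In SHR, 3 of 4 collateral arrays lay above all 4 control arrays, and SHR collateral 4 lay among the controls. The log2 change was 0.47 ± 0.36 in SHR (adjusted p = 0.949 by limma), 0.43 ± 0.38 without SHR collateral 3, and 1.16 ± 0.39 in WKY. The WKY value rested in part on WKY control 2, the lowest of the 15 arrays, and was 0.56 without that array. The probe set rc_AI180442_at had a log2 change of 0.24 ± 0.34 in SHR (0.39 ± 0.34 without SHR collateral 3) and 0.84 ± 0.37 in WKY, where its groups did not overlap. M89945mRNA_at stood at 0.76 ± 0.75 in SHR, 0.27 ± 0.76 without SHR collateral 3 and 1.44 ± 0.81 in WKY, with overlap in both strains. All 3 Fdps probe sets were thus above 0 in both strains, with adjusted p of 0.949 for each in SHR by limma.

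Fdft1 codes for squalene synthase, which commits farnesyl diphosphate to sterols. Its probe set of highest mean signal, rc_H33426_at, had 888, 459, 726 and 399 in SHR collateral arteries, against 558, 248, 521 and 539 in SHR control arteries. It had 417, 144, 484 and 409.7 in WKY collateral arteries, against 314, 586 and 928 in WKY control arteries. Both strains overlapped, and the log2 change was 0.40 ± 0.47 in SHR (0.30 ± 0.50 without SHR collateral 3) and -0.75 ± 0.51 in WKY. The probe sets of this gene did not move as one. M95591_g_at had 319, 216, 594 and 203 in SHR collateral arteries, against 135, 159.7, 135 and 197 in SHR control arteries, without overlap. The lowest collateral array (203.1) and the highest control array (197.3) were almost level. This probe set was also at low signal, with only 6 of 15 arrays at or above the 40th percentile. Its log2 change was 0.96 ± 0.50 in SHR (adjusted p = 0.949 by limma), 0.64 ± 0.49 without SHR collateral 3, and -0.41 ± 0.54 in WKY. For rc_H33426_g_at the values were 0.05 ± 0.68 in SHR, -0.29 ± 0.70 without SHR collateral 3 and 1.02 ± 0.74 in WKY, at low signal, with only 4 of 15 arrays at or above the 40th percentile. A further probe set, M95591_at, was below that percentile on every array and was not tested.

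Sqle codes for squalene epoxidase, an oxygen-using and often rate-limiting step. Its probe set D37920_at had signals of 1631, 869, 444 and 2062 in SHR collateral arteries, against 853, 589, 1002 and 1044 in SHR control arteries. It had 1652, 1631, 1529.6 and 2351 in WKY collateral arteries, against 1032, 1054 and 714 in WKY control arteries. Within SHR collateral arteries, arrays 1 and 4 were higher than all 4 SHR controls and array 3 was lower than all of them. The log2 change was 0.33 ± 0.39 in SHR (adjusted p = 0.949 by limma) and 0.75 ± 0.31 without SHR collateral 3 (adjusted p = 0.999). In WKY it was 0.94 ± 0.43, a 1.92-fold higher signal with no overlap.

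Cyp51 codes for lanosterol demethylase, the first enzyme after the sterol rings close, and had 5 probe sets. The brightest, U17697_s_at, whose suffix means that its probes can match more than 1 transcript, had 5299, 2097, 873 and 6125 in SHR collateral arteries, against 2556, 1568, 2786 and 4049 in SHR control arteries. It had 4302, 4561, 4862 and 5146 in WKY collateral arteries, against 2424, 2510.3 and 1538 in WKY control arteries. As with Sqle, SHR collateral 1 and 4 lay above all SHR controls, and SHR collateral 3 lay below all of them. The log2 change was 0.10 ± 0.46 in SHR (adjusted p = 0.981 by limma), 0.66 ± 0.35 without SHR collateral 3 (adjusted p = 0.999), and 1.16 ± 0.50 in WKY. The SHR value of this probe set went below 0 under 5 of 25 alternative settings, with a range of -0.28 to 0.86.

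The other 4 Cyp51 probe sets had overlapping groups in both strains. AB004096_at stood at a log2 change of -0.17 ± 0.32 in SHR (-0.06 ± 0.32 without SHR collateral 3) and 0.47 ± 0.35 in WKY. rc_AA963449_s_at stood at 0.41 ± 0.40 in SHR (0.43 ± 0.41 without that array) and 0.59 ± 0.43 in WKY. rc_AI230255_at stood at 0.87 ± 0.53 in SHR (0.71 ± 0.56 without that array) and 0.06 ± 0.57 in WKY. The dim rc_AA997614_s_at stood at 0.76 ± 0.87 in SHR (-0.003 ± 0.82 without that array) and 0.16 ± 0.94 in WKY. So the larger WKY value of the brightest Cyp51 probe set was not shared by the rest, whose WKY values lay between 0.06 and 0.59.

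Dhcr7 codes for the reductase that makes cholesterol from its immediate precursor. AB016800_g_at had signals of 282, 194, 382 and 596 in SHR collateral arteries, against 884, 689, 1051 and 591 in SHR control arteries. It had 435, 858, 970.2 and 498 in WKY collateral arteries, against 556, 602 and 774 in WKY control arteries. In SHR, 3 of 4 collateral arrays lay below all 4 control arrays, and SHR collateral 4 was level with the lowest control. The log2 change was -1.23 ± 0.39 in SHR (adjusted p = 0.949 by limma) and -1.29 ± 0.41 without SHR collateral 3 (adjusted p = 0.999). It was the only member probe set with an unadjusted p under 0.05 in SHR over all arrays. In WKY it was 0.03 ± 0.42, with overlap. The other Dhcr7 probe set, AB016800_at, had log2 changes of -0.09 ± 0.44 in SHR (-0.08 ± 0.47 without SHR collateral 3) and 0.25 ± 0.48 in WKY, so the lower SHR signal was seen in 1 of 2 probe sets of the gene.

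**Figure D2:**
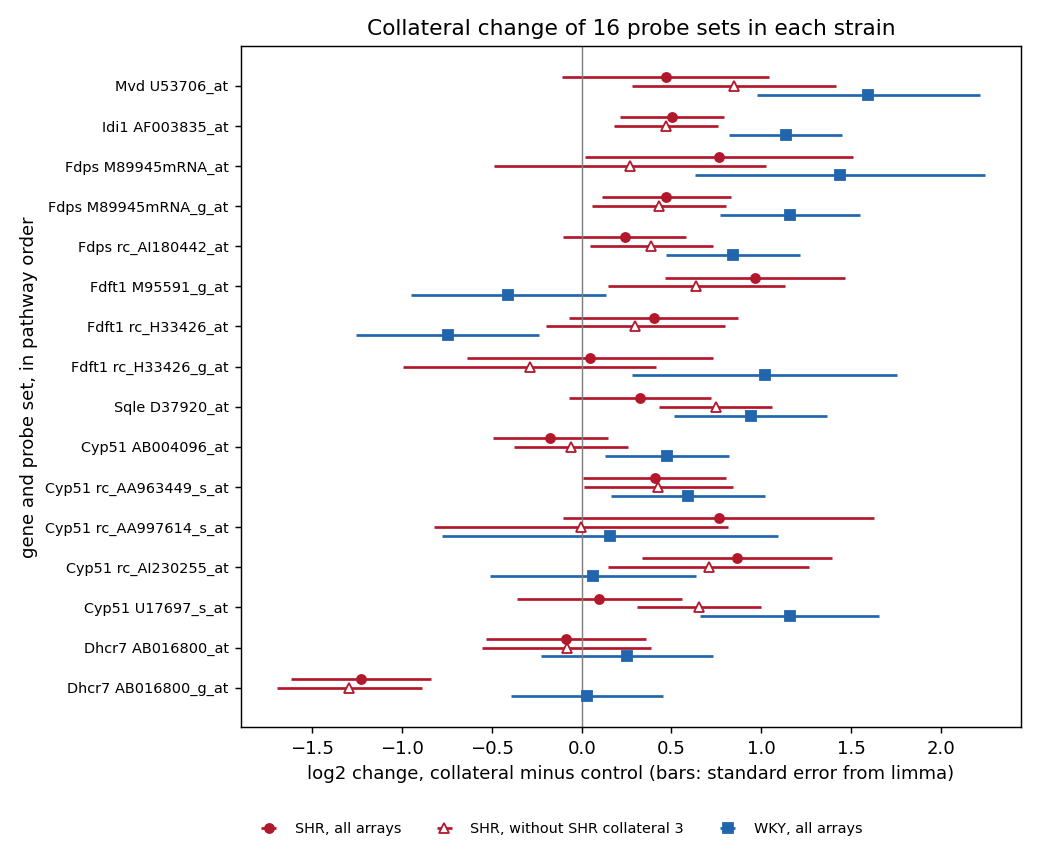
Log2 change of the 16 tested probe sets, collateral minus control, with the standard error from limma, in pathway order from Mvd at the top to Dhcr7 at the bottom; filled circles are SHR on all arrays, open triangles SHR without SHR collateral 3 and squares WKY. The SHR points lie between -1.29 and 0.96 and the WKY points between -0.75 and 1.60, and the probe sets of Fdft1 lie on both sides of 0 in WKY.

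The difference of the collateral changes, SHR minus WKY, was above 0 for 4 of 16 probe sets (52.5% of all), with a median of -0.62 against 0.03 over all, and -0.48 without SHR collateral 3. This difference contains the WKY contrast that helped to choose the genes, so it is given as a description. It was -1.13 ± 0.85 for Mvd (-0.75 ± 0.80 without SHR collateral 3) and -0.63 ± 0.43 for Idi1 (-0.67 ± 0.41). It was -0.62 ± 0.58 for Sqle and -0.19 ± 0.44 without SHR collateral 3. It was -1.06 ± 0.68 for Cyp51 U17697_s_at and -0.50 ± 0.49 without that array. So for both genes the difference was smaller without that array. By the adjusted p, 0 of 16 and 0 of 6512 (0%) passed, and 1 of 16 had an unadjusted p under 0.05 in the lower direction, Dhcr7 AB016800_g_at at -1.26 ± 0.58, or -1.33 ± 0.57 without SHR collateral 3 (0.676% of all).

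Between strains, SHR control arteries had a median log2 difference of 0.30 from WKY control arteries over the 16 probe sets, against 0.02 over all. By the adjusted p, 0 of 16 passed, against 2 of 6512 (0.0307%). The groups did not overlap, with SHR higher, for 1 of 16, the dim Fdft1 rc_H33426_g_at (4.85% of all), at 1.43 ± 0.74. Among probe sets at or above the 40th percentile on every array, Fdps M89945mRNA_g_at stood at 0.77 ± 0.39, and as low as 0.17 under alternative settings. Fdps rc_AI180442_at stood at 0.54 ± 0.37, Idi1 at 0.21 ± 0.32, Sqle at -0.11 ± 0.43 and Dhcr7 AB016800_at at 0.10 ± 0.48. For Cyp51, U17697_s_at stood at 0.30 ± 0.50, rc_AA963449_s_at at 0.51 ± 0.43 and AB004096_at at 0.24 ± 0.35. In collateral arteries the median SHR minus WKY difference was 0.006, against 0.12 over all, and -0.08 without SHR collateral 3. There, 0 of 16 and 0 of 6512 (0%) passed the adjusted p, and 1 of 16 was lower at an unadjusted p under 0.05, Dhcr7 AB016800_g_at at -0.96 ± 0.39, or -1.03 ± 0.41 without SHR collateral 3 (3.61% of all). These comparisons share the WKY arrays with the contrast used to choose the genes.

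The 7 genes, each by its brightest probe set and taken relative to its own mean over 15 arrays, averaged 0.01 ± 0.39 on the log2 scale in SHR collateral arteries (SD, n = 4), or 0.17 ± 0.28 without SHR collateral 3 (n = 3), -0.13 ± 0.20 in SHR control (n = 4), 0.39 ± 0.15 in WKY collateral (n = 4) and -0.36 ± 0.10 in WKY control (n = 3). SHR collateral arteries were the most spread group. Their arrays 1 to 4 had averages of 0.27, -0.15, -0.46 and 0.40, against -0.39 to 0.09 in SHR control arteries. SHR collateral 1 and 4 thus lay within the WKY collateral range of 0.25 to 0.60, and SHR collateral 2 lay within the SHR control range. Spike-in controls, which are RNAs added to each sample, had mean signals of 39441, 61655, 180143 and 13556 on SHR collateral 1 to 4, in the exact reverse order of these averages. On the 14 arrays other than SHR collateral 3 the spike-in mean lay between 13556 and 66441. Among SHR control arteries, array 1 had the lowest spike-in mean, 25856, and the highest average of the 7 genes, 0.09. Array 2 of that group had the highest spike-in mean, 42195, and the lowest average, -0.39. The reverse order did not hold in WKY, where the spike-in mean was highest, 66441, on WKY collateral 3, the array with the highest average of the 7 genes. The part of array quality in these values was not tested. On SHR collateral 3, 3 of 7 genes were above their own mean and 4 below it.

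**Figure D3:**
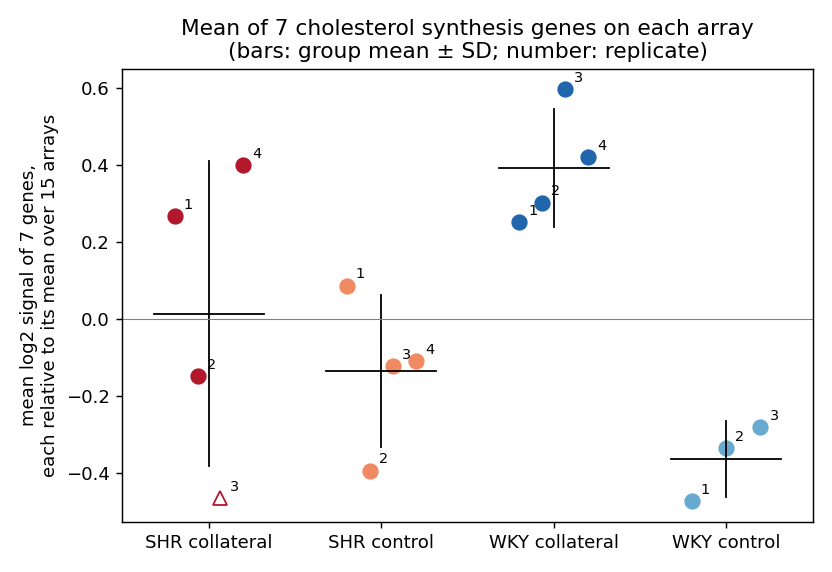
Mean log2 signal of the 7 genes on each array, each gene relative to its own mean over 15 arrays, by group in the order SHR collateral, SHR control, WKY collateral, WKY control; numbers are replicates, the open triangle is SHR collateral 3, and bars are the group mean ± SD. The SHR collateral arrays spread from -0.46 to 0.40, while the WKY collateral arrays lie between 0.25 and 0.60 and the WKY control arrays between -0.47 and -0.28.

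Sqle and Cyp51 (U17697_s_at), both oxygen-using steps, varied together from array to array. Over 15 arrays the correlation of their log2 signals was 0.953 (Pearson) and 0.896 (Spearman), and over 14 arrays it was 0.935 and 0.873 without SHR collateral 3. These values include the group differences used to choose the genes. With each group's mean removed, the Pearson correlation was 0.968 over 15 arrays (exact two-sided permutation of arrays within groups, p = 0.000121, adjusted over 21 gene pairs 0.00253) and the Spearman correlation 0.936 (exact p = 0.00035, adjusted 0.00734). Without SHR collateral 3 these were 0.926 (exact p = 0.000482, adjusted 0.0101) and 0.873 (exact p = 0.000627, adjusted 0.0132). Leaving out the 2 arrays farthest from the median of Sqle, SHR collateral 3 and 4, gave 0.91. The order was not the same in every group: among WKY collateral arteries 1 to 3, the array with the lowest Sqle signal, array 3, had the highest Cyp51 signal. The points share each array's own scaling. In SHR collateral arteries both genes were highest on the array with the lowest spike-in signal and lowest on the array with the highest, and the part of array quality in this correlation was not tested.

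The other 20 gene pairs did not pass the adjusted test. The median correlation of the 21 pairs, group means removed and without SHR collateral 3, was 0.02, against 0.01 over pairs of all tested genes. Idi1 had correlations of 0.45 with Sqle and 0.33 with Cyp51 in that setting. Fdft1 ran against Idi1 at -0.63 (exact p = 0.0368, adjusted 0.258 by permutation), and Mvd against Idi1 at -0.41 (exact p = 0.0276, adjusted 0.258 by permutation). Joint variation within groups was thus seen for Sqle and Cyp51 alone. With so few arrays, and with probe sets of 1 gene that also differ, these correlations cannot show that it was absent elsewhere.

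**Figure D4:**
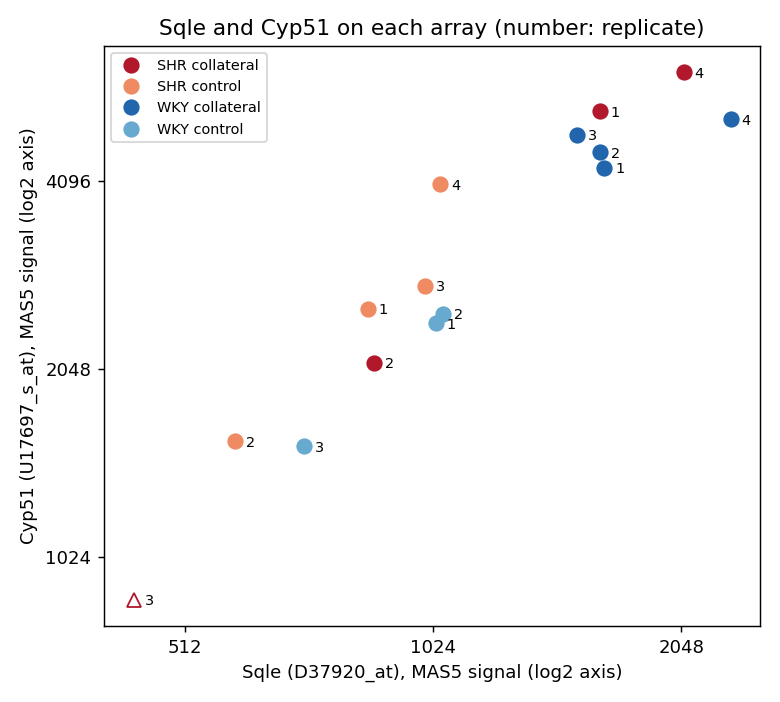
MAS5 signal of Cyp51 (vertical) against Sqle (horizontal) on the 15 arrays, both on log2 axes, coloured by group in the order SHR collateral, SHR control, WKY collateral, WKY control and numbered by replicate, with SHR collateral 3 as an open triangle. The points form a single band, from SHR collateral 3 with the lowest signal of both genes to SHR collateral 4 and the WKY collateral arrays at the top, with a Pearson correlation of 0.953.

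Probe sets of 1 gene were less alike than Sqle and Cyp51. Over 14 arrays without SHR collateral 3, the brightest Cyp51 probe set had a correlation of 0.59 with AB004096_at, 0.38 with rc_AA963449_s_at and -0.46 with the dim rc_AA997614_s_at. The correlation was 0.52 between the Fdps probe sets M89945mRNA_g_at and rc_AI180442_at, 0.33 between the Dhcr7 pair, and -0.39 between rc_H33426_at and rc_H33426_g_at of Fdft1. These are given as a description over 14 arrays.

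The genes whose profile was most like the mean of the 7, over 14 arrays without SHR collateral 3 and among 5258 candidate probe sets, were Acat2 at a correlation of 0.885, Nme1 at 0.874 and Psmd2 at 0.866. Acat2 is the acetyl-CoA acetyltransferase of the cytosol, which starts the mevalonate route. Its probe set rc_AA859980_at had signals of 1647, 1113, 59.2 and 1352 in SHR collateral arteries, against 1366, 584, 1185 and 916 in SHR control arteries. It had 1357, 1203, 1598 and 1302 in WKY collateral arteries, against 503, 605 and 804 in WKY control arteries. The SHR groups overlapped and the WKY groups did not, and SHR collateral 3 was the lowest of all 15 arrays. The likeness contains the group differences: of the 10 most alike genes, 7 were shared with the 10 found on all 15 arrays, and 0 with the 10 found after each group's mean was removed. Acat2 was in neither of those other lists.

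Other genes of cholesterol synthesis, from a list of 15 of which 8 were tested (1 probe set per gene, the brightest), had 3 of 8 above 0 in SHR and 6 of 8 in WKY, with medians of -0.31 and 0.23, against 0.01 and -0.001 over all tested genes. None of the 8 had an unadjusted p under 0.05 in either strain, where 2.07% (SHR) and 1.75% (WKY) of all probe sets were higher at that level, and 0 of 8 passed the adjusted p by limma. Without SHR collateral 3 the SHR median was -0.03, and 1 of 8, Msmo1, had an unadjusted p under 0.05 in WKY. In that fit, 4.93% of all probe sets did in WKY, in either direction. Acat1, a mitochondrial thiolase, stood at -0.78 ± 0.49 in SHR and -0.04 ± 0.24 without SHR collateral 3, and at -0.27 ± 0.53 in WKY. Msmo1, the methylsterol oxygenase that acts after Cyp51, stood at -0.30 ± 0.42 in SHR, 0.29 ± 0.24 without SHR collateral 3, and 0.77 ± 0.45 in WKY (0.77 ± 0.24 in the fit without SHR collateral 3). Hsd17b7, which also acts on sterol rings, stood at -0.75 ± 0.82 in SHR (-0.55 ± 0.87 without SHR collateral 3) and 0.91 ± 0.89 in WKY. The second Acat2 probe set, rc_AA859980_g_at, stood at 0.41 ± 0.33 in SHR (0.22 ± 0.32 without SHR collateral 3) and 0.12 ± 0.36 in WKY.

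Of 7 listed SREBP regulators, only 3 had a probe set and were tested: Srebf1, Insig1 and Mbtps2. Srebf2, which codes for the other SREBP factor, and Scap were not measured. Of the 3, 0 were above 0 in SHR (54.8% of all probe sets were) and 2 in WKY (50.3% of all). Without SHR collateral 3, 1 was above 0 in SHR (49.6% of all), Mbtps2. Mbtps2 stood at -0.11 ± 0.76 in SHR, 0.40 ± 0.75 without SHR collateral 3, and 1.17 ± 0.82 in WKY. Srebf1, which codes for an SREBP factor, had a log2 change of -1.25 ± 0.53 in SHR (adjusted p = 0.949 by limma), -1.28 ± 0.55 without SHR collateral 3, and 0.16 ± 0.57 in WKY. Srebf1 was dim in SHR collateral arteries, with signals of 154, 76.1, 116 and 105, each below the 40th percentile of its array. In SHR control arteries its signals were 243, 488, 126 and 305. Srebf1 was also below the 40th percentile on SHR control 3, on WKY collateral 1 and 4 and on every WKY control array. It was the only 1 of the 3 with an unadjusted p under 0.05 in SHR (1.69% of all were lower). Insig1, which holds SREBP factors back and is itself a known SREBP target, stood at -0.46 ± 0.55 in SHR, -0.01 ± 0.52 without SHR collateral 3, and -0.01 ± 0.59 in WKY.

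Genes of cholesterol efflux, storage and oxidation (6 tested) had 0 above 0 in SHR and 2 in WKY. In SHR, 1 of 6 had an unadjusted p under 0.05 (1.69% of all were lower), and 2 of 6 without SHR collateral 3 (2.06% of all). Cyp27a1, a mitochondrial sterol hydroxylase, stood at -1.52 ± 0.58 in SHR (adjusted p = 0.949 by limma), -1.28 ± 0.60 without SHR collateral 3, and -1.32 ± 0.63 in WKY. Apoe, the lipoprotein carrier, stood at -0.48 ± 0.42 in SHR, -0.84 ± 0.39 without SHR collateral 3, and -0.06 ± 0.46 in WKY. All 6 were above 0 in SHR control against WKY control arteries, and 3 of 6 had an unadjusted p under 0.05 there (3.72% of all were higher). These 3 were Apoe at 1.68 ± 0.46 (adjusted p = 0.267 by limma), the oxysterol receptor gene Nr1h3 at 0.86 ± 0.39 and the hydroxylase gene Cyp7b1 at 1.75 ± 0.82. For Cyp7b1 the groups overlapped, with signals of 965, 519, 930 and 364 in SHR control arteries against 375, 424 and 43.7 in WKY control. The 43.7, on WKY control 3, lay below that array's 20th percentile of 77.1. Macrophage markers were also higher in SHR control than in WKY control arteries. There, 4 of 4 were above 0, with a median of 2.13, and 3 of 4 had an unadjusted p under 0.05 (3.72% of all were higher). In SHR collateral against SHR control arteries the 2 lists differed in direction, with medians of 0.50 for macrophage markers and -0.19 for these 6 genes. These were Cd74 at 3.63 ± 0.90, Lyz2 at 2.15 ± 0.69 and C1qb at 2.12 ± 0.68. The sum of the 4 was 4403 to 43543 in SHR control arteries against 1955 to 5336 in WKY control, and its part in these values was not tested.

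Cholesterol uptake and lysosomal release (3 tested: Vldlr, Scarb1 and Lipa), fatty acid synthesis (5 tested) and the isoprenoid branch with prenylation (5 tested) had 0 genes with an unadjusted p under 0.05 in SHR or in WKY collateral against control arteries. Their medians lay between -0.16 and 0.09 in SHR, between -0.30 and 0.03 there without SHR collateral 3, and between -0.06 and 0.18 in WKY. Fasn, the fatty acid synthase, stood at 0.37 ± 0.35 in SHR (0.07 ± 0.31 without SHR collateral 3) and -0.17 ± 0.37 in WKY. Acly, which makes cytosolic acetyl-CoA, stood at -0.77 ± 0.40 in SHR (-0.25 ± 0.27 without SHR collateral 3) and 0.26 ± 0.43 in WKY.

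Cell type markers were measured beside these values. Smooth muscle markers (5 tested) had median log2 changes of -0.30 in SHR (0.03 without SHR collateral 3) and 0.24 in WKY. In SHR their sums were 71189 to 294397 in collateral arteries against 124333 to 249646 in control. In WKY the sums were 177937 to 279736 in collateral arteries against 170037 to 269706 in control. Their SHR minus WKY median in collateral arteries was -0.75 (-0.33 without SHR collateral 3). All 6 fibroblast markers were below 0 in both strains, also without SHR collateral 3, and 3 of 6 had an unadjusted p under 0.05 in SHR (1.69% of all were lower). Their summed signal was 199565 to 350114 in SHR collateral arteries against 277861 to 431099 in SHR control, and 217015 to 286208 in WKY collateral arteries against 287223 to 365038 in WKY control, without overlap in WKY. All 4 proliferation markers measured were above 0 in both strains, with sums of 7035 to 15829 in SHR collateral arteries against 6132 to 13330 in SHR control, and 5323 to 12608 in WKY collateral arteries against 3592 to 10258 in WKY control. The 4 tested adipocyte markers were below 0 in both strains, with sums over the 5 measured that overlapped. Of 4 hepatocyte markers, from a cell with high cholesterol synthesis, 4 were above 0 in SHR (2 without SHR collateral 3) and 3 in WKY, with median log2 changes of 0.42 (0.11 without that array) and 0.85. Their sums were 878 to 5852 in SHR collateral arteries against 924 to 2478 in SHR control, and 907 to 2195 in WKY collateral arteries against 1086 to 1360 in WKY control. Alb had a median percentile of 35.6, Ttr 26.7, Apoa1 61 and Serpina1 65. Of 4 macrophage markers, 3 were above 0 in each strain, with median log2 changes of 0.50 in SHR (0.39 without SHR collateral 3) and 0.61 in WKY. In WKY 1 of 4, Lyz2, was higher at an unadjusted p under 0.05 (1.75% of all were). The part of these cell types in the members' values was not tested.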

How the data were processed

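RNA of rat mesenteric arteries was purified with a kit for fibrous tissue and labelled with biotin, per the labels' protocols. The deposited files give a linear signal for each probe set on each array, which the authors made using GCOS and MAS5, per the submitters' processing notes (versions: not given in the sources used here). Arrays had been brought to a like level: after trimming 2% at each end, the mean signal was 981 to 993 on every array. Precision rests on the number of arrays: the median SE was 0.50 in SHR and 0.54 in WKY on the log2 scale.

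Signals were floored at 1 (12 values lay below) and taken to log2. Of 8799 probe sets, 59 array controls were left out. Probe sets reaching the 40th percentile of an array on 3 or more arrays were tested. Genes were named from the platform annotation, where 7006 probe sets have 1 symbol, 308 several and 1426 none.

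limma 3.58.1 in R 4.3.3 fitted 4 group means over all 15 arrays with a variance trend (two-sided, Benjamini-Hochberg over 6512). The fit was tested on simulated data. The named genes were all members, and per list up to 3 with the smallest p in SHR or in the contrast described. The promoter motifs and the 4 promoters shown were also chosen after values were seen. Members and lists were chosen with earlier results of these data known. Alternatives were other scalings, filters, fits, probe set rules and each array left out. Correlations between members were tested by exact permutation within groups.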

Additional observations from a re-analysis of the deposited data

Results flagged for a closer look

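In 48 groups of 4 arrays (16 tested probe sets), 3 held an array far from the other 3 by Dixon's test, where chance flags about 5% of groups. Fdps M89945mRNA_g_at had a signal of 928.6 on SHR collateral 4, while the nearest of the other SHR collateral arrays had 1192. Fdft1 rc_H33426_at had 248.5 on SHR control 2, while the nearest of the other SHR control arrays had 521.3. The same probe set had 144.2 on WKY collateral 2, while the nearest of the other WKY collateral arrays had 409.7. The cause was not tested.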

How the results depend on the processing

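With 3 or 4 arrays a group, changes near 1 SE could not be resolved, and dim probe sets of Fdft1 and Cyp51 carry little signal. Of 861 values of the 7 genes under alternatives, 15 changed sign and 5 moved by more than 1 SD; the cause was not tested. Equal array medians moved the median of all probe sets in SHR to -0.12, against 0.06 as deposited, and the members' median there to 0.22 (0.20 with quantile normalization). The difference SHR minus WKY then had a median of -0.83 (-0.80 with quantile normalization, -0.41 with array weights). In collateral arteries the SHR minus WKY median was -0.23 with equal medians, -0.20 with quantile normalization, -0.33 with the 60th percentile filter, -0.42 with each gene's probe sets averaged and -0.68 with its brightest probe set. The WKY median was 0.53 with no filter, 0.89 with the 60th percentile filter, 0.94 with probe sets averaged and 1.14 with the brightest.

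Counts of member probe sets at an unadjusted p under 0.05 also moved. In WKY there were 3 with quantile normalization (3.06% of all) and 3 with equal medians (2.95%). With no variance trend there were 2 in SHR (3.85%), 2 for the difference (2.24%) and 1 in control arteries (6.14%). With array weights there were 3 in SHR (7.16%), 4 for the difference (4.24%), 2 in control (10.5%) and 3 in collateral arteries (11.1%), and calls by adjusted p over all probe sets were 14 and 26 in these last 2 comparisons, against 2 and 0. With only the groups compared there were 1 in control (9.08%) and 0 in collateral arteries (5.67%).

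With each array left out, the WKY median ranged from 0.58 to 0.93 and the count from 3 to 6, the SHR median from 0.14 to 0.44 and the count from 1 to 3, the difference's median from -0.75 to -0.48 and its count from 0 to 2. Between strains, the control median ranged from 0.21 to 0.30 and the count from 0 to 1, and the collateral median from -0.22 to 0.10 and the count from 0 to 4. Over all probe sets, the share at that level was 2.24% to 4.93% in WKY and 3.06% to 11.6% in SHR. It was 1.32% to 4.98% for the difference, 4.33% to 9.32% in control and 5.21% to 17.4% in collateral arteries. The highest counts in SHR and in collateral arteries, 3 and 4, came without SHR collateral 4, where these shares were 11.6% and 17.4%. The within-group correlation of Sqle and Cyp51 ranged from 0.926 to 0.985 with each array left out and from 0.965 to 0.978 under other scalings or an added constant of 64, settings chosen after seeing the data.

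Deviations of each array from its group mean were correlated between the collateral and control arrays of a strain. Same-numbered arrays stood at -0.07 to 0.08 in SHR and 0.02 to 0.31 in WKY. Different-numbered arrays stood at -0.09 to 0.10 in SHR and -0.27 to 0.11 in WKY. The labels do not say what the number marks, so a pairing is not established; the 3 WKY values were all above 0. With the number as a fixed replicate block the count was 1 in SHR (4.47%) and 4 in WKY (2.96%), and the medians were 0.40 and 0.65.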
